A study of Mus musculus and other sequences with 2 samples.

Results

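The miR-302/miR-367 cluster was measured with 5 TaqMan assays, for mature miR-302a, miR-302b, miR-302c, miR-302d and miR-367, which were taken by name from the 750 miRNA assays of a rodent array. Assays for the minor arms of the same hairpins, which the array marks with #, were kept apart. Of the 5 assays, 3 amplified in media conditioned with blastocysts and amplified about as early in blank media. The fourth, miR-302d, crossed the threshold only in conditioned media and very late, and miR-302c did not amplify in either sample. This differed from the mouse assays of miR-290 family members with the seed of miR-302b and miR-302d, which were detected with embryos and not without, while a rat-named assay for one of them, rno-miR-294, was detected in blank media only.

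The array compared 1 microdroplet of conditioned media with 1 blank microdroplet, so that the comparison has no replicate and no test. Conditioned media came from a pooled culture of 25 embryos of CD1 mice, an outbred stock, kept from 99 to 116 h post-hCG after superovulation of females, 3 weeks old per the labels, and mating with CD1 males. They were morulae or cavitating embryos when placed in the microdroplet, per the methods, although the labels call them blastocysts. The blank microdroplet held the same media, KSOM without BSA and with 0.1% polyvinylacetate per the labels, for the same 17 h but with no embryos. From each 8 μL microdroplet, 6 μL was lysed, reverse transcribed, pre-amplified for 12 cycles and amplified on cards A and B for 40 cycles. Each value is a Ct, the cycle at which the fluorescence of a well crosses its threshold, on an inverted log2 scale where a lower Ct stands for more template. A well that never crossed is undetermined. An assay was called detected at a Ct below 35, which held for 280 of the 750 assays in conditioned media (37.3%) and for 218 in blank media (29.1%). With wells of a Ct below 15 counted as not detected, these counts were 236 and 170. The filter of the paper also used the height of fluorescence. With it, the paper reported far fewer detected miRNAs in conditioned media and in blank media. Whether the wells of the cluster members would pass this filter was not tested. A detected assay here may therefore not mean that its miRNA was present. As media were analysed and not the embryos, the label of the conditioned sample was checked against the 3p arms of miR-290 to miR-295, the miRNAs for which early mouse embryos and embryonic stem cells are known. Of the 9 mouse assays counted for these arms, 8 were detected with embryos and 0 without. The assay miR-290 on card B, which names no arm and was undetermined in both samples, was not counted among them. The assay name miR-292-3p was counted on both cards, and rat-named assays were not counted. As the list was chosen with earlier results of these data known, this is no independent check.

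The miR-302/miR-367 cluster is a single primary transcript that is processed into several hairpins, and it is known as a pluripotency cluster since Oct4 and Sox2 drive it in embryonic stem cells. In the mouse, the miR-290 cluster dominates in the blastocyst and in naive stem cells, while the miR-302/miR-367 cluster is known for its rise in the epiblast around implantation. The miR-302 members repress inhibitors of the cell cycle and regulators of Nodal signalling. The seed of miR-302b and miR-302d, called the miR-302 seed here, is that of several miR-290 members. miR-367 has another seed, that of miR-25, miR-32, miR-92 and miR-363.

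In the RefSeq annotation of GRCm38.p6, the 5 hairpins lie in the order Mir302b, Mir302c, Mir302a, Mir302d and Mir367 on the plus strand, within 580 bases at chr3:127545228-127545807. This interval lies inside the limits of the protein-coding gene Larp7, which is on the minus strand, and of the long non-coding RNA gene Gm51018. No build is named in the deposited values. The assay names without # were read as the 3p arms, and mature 3p sequences from RefSeq are shown for 4 of the 5, since they show how little the miR-302 members differ from each other and which part they have in common with the miR-290 family. All are written 5′ to 3′ with bases 2 to 8, the seed, in capitals.
miR-302b-3p: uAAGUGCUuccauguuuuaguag
miR-302c-3p: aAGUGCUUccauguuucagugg
miR-302d-3p: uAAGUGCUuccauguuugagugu
miR-367-3p: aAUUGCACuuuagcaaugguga

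For comparison, these 3 miR-290 family members have the miR-302 seed AAGUGCU.
miR-291a-3p: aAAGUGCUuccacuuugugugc
miR-294-3p: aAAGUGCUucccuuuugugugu
miR-295-3p: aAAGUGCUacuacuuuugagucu

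The next 3 have the miR-367 seed AUUGCAC.
miR-25-3p: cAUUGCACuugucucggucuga
miR-32-5p: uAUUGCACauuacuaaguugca
miR-363-3p: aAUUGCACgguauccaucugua

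From the first base, miR-302b-3p and miR-302d-3p were identical over 17 bases and matched in 20 of 23. The listed miR-302c-3p starts 1 base later, which shifts its bases 2 to 8 to AGUGCUU, and matched miR-302b-3p in 20 of 22 bases once set 1 base along. By contrast, miR-302b-3p matched miR-294-3p in 14 of 22 bases and miR-367-3p, in its best ungapped position, in 9 of 22.

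The assay mmu-miR-302a had the lowest Ct of the cluster, at 21.0 with embryos and 22.2 without. Among the detected assays of card A, which carries all 5 members, it ranked 35 of 149 by Ct in conditioned media and 50 of 122 in blank media. All ranks here count wells with a Ct below 15, which came as early as 5.74 with embryos and 4.37 without. For mmu-miR-302b the Ct was 27.1 with embryos and 28.0 without, ranks 80 and 81. Both were slightly earlier in the sample with embryos. For mmu-miR-367 it was 23.8 with embryos and 22.6 without, ranks 49 and 53, and was thus slightly later in the sample with embryos. The order of the 3 wells, with miR-302a first, miR-367 second and miR-302b last, was the same in both samples. Since assays amplify with unequal efficiency, this order is not one of amounts.

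The assay mmu-miR-302d crossed the threshold at a Ct of 36.8 with embryos and not at all without. This is 3.25 cycles before the end of the run and past the limit of 35, and miR-302d was therefore not called detected. A Ct of 35 or later in conditioned media with none in blank media was seen for 11 of the 374 miRNA assays of card A (2.94%), and the opposite, a late Ct in blank media with none in conditioned media, for 9 (2.41%). Late Ct values in a single well were thus about as frequent on this card without embryos as with them. The assay mmu-miR-302c was undetermined in both samples, as were 175 of the 374 assays of card A (46.8%). The sequences of miR-302b and miR-302d differ only near the 3′ end, as shown above. Whether the assays of miR-302 members also amplify each other was not tested.

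**Figure D1:**
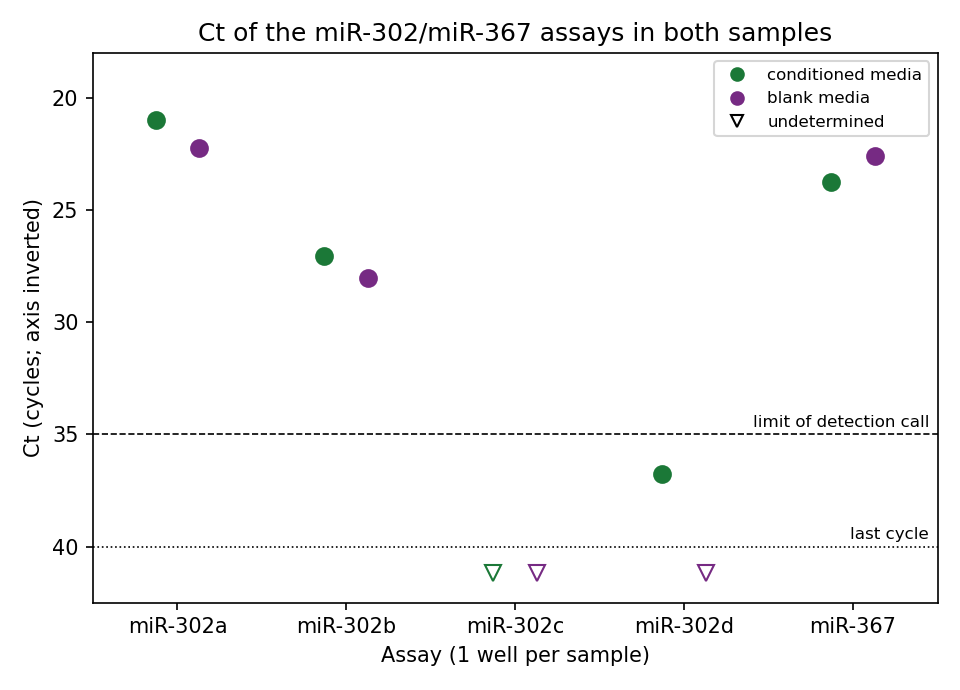
Ct of the 5 miR-302/miR-367 assays in conditioned media (green) and blank media (purple), 1 well each, on an inverted axis in cycles. Filled circles are measured Ct values and open triangles undetermined wells; the dashed line marks the limit of 35 and the dotted line the last cycle, 40. For miR-302a, miR-302b and miR-367 the circles of both samples lie within 1.5 cycles of each other, and miR-302d at 36.8 lies past the limit.

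In all, 3 of the 5 assays were detected in conditioned media, against 39.8% of the miRNA assays of card A, and the same 3 in blank media, against 32.6%. None was detected in conditioned media only, a pattern that 55 assays of card A had (14.7%), and none in blank media only, as 28 had (7.49%). With 5 assays, these shares do not tell the cluster apart from the rest of the card. Detection in both samples was found for 94 assays of card A (25.1%).

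The difference, conditioned minus blank media, was -1.22 cycles for miR-302a, -0.95 for miR-302b and 1.17 for miR-367. If each cycle doubled the product, these would be a ratio of conditioned to blank media of 2.32 for miR-302a, 1.93 for miR-302b and 0.444 for miR-367. The only assay repeated within a card was the small nuclear RNA U6, in 4 wells. On card A its SD was 0.68 cycles in conditioned media and 3.22 in blank media, where 1 well lay at 20.2 beside 3 between 26.3 and 27.1. A difference between 1 well of each sample would then have an SD of 3.29 cycles, larger than the differences of all 3 members. Leaving out the U6 well farthest from the median of each sample, as was decided with the values in view, gave an SD of 0.50, and leaving out only that of blank media an SD of 0.83, both smaller than each of the 3 differences. Whether these exceed the error between wells thus depends on the U6 wells taken, and all of these SDs describe wells and not cultures.

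Among the 94 assays of card A detected in both samples, the middle 50% of differences ran from -3.04 to 1.96 cycles, with a median of -0.12, and the differences of miR-302a, miR-302b and miR-367 all fell inside it. A difference of at most 1.5 cycles either way, a width chosen after these values were seen, was found for 29 of the 94 (30.9%). Embryos went with a Ct over 5 cycles earlier for 12 assays (12.8%) and over 5 cycles later for 15 (16.0%), neither of which included a cluster member. The gap between miR-302a and miR-302b was 6.07 cycles in conditioned media and 5.80 in blank media, so that the wells of these miR-302 members kept their distance to within 0.27 cycles. Against miR-367, the difference of miR-302a was 2.39 cycles lower and that of miR-302b 2.12 cycles lower. Each of these gaps rests on 4 wells, for which the SD would be 4.65 cycles, or 0.70 without the farthest U6 wells, and both gaps lie between these values.

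On card A, the mean Ct of U6 was 20.9 with embryos and 24.98 without, so that U6 itself came 4.08 cycles earlier with embryos. Taken relative to the mean of U6, the sign of the miR-302 differences turned, to 2.87 cycles later in conditioned media for miR-302a and 3.13 for miR-302b, and that of miR-367 grew to 5.25 cycles later. The direction of the miR-302 differences therefore depends on whether Ct values are normalized to U6. Of the other controls, the small nucleolar RNAs snoRNA135 and snoRNA202, with a Ct of 33.0 and 28.5 on card A in conditioned media, had none in blank media. Control wells of 1 sample did not always match between cards, since in conditioned media U87 had a Ct of 32.7 on card A and none on card B, and Y1 had none on card A and a Ct of 15.5 on card B. The plant control miR-159a was undetermined in all of its wells.

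**Figure D2:**
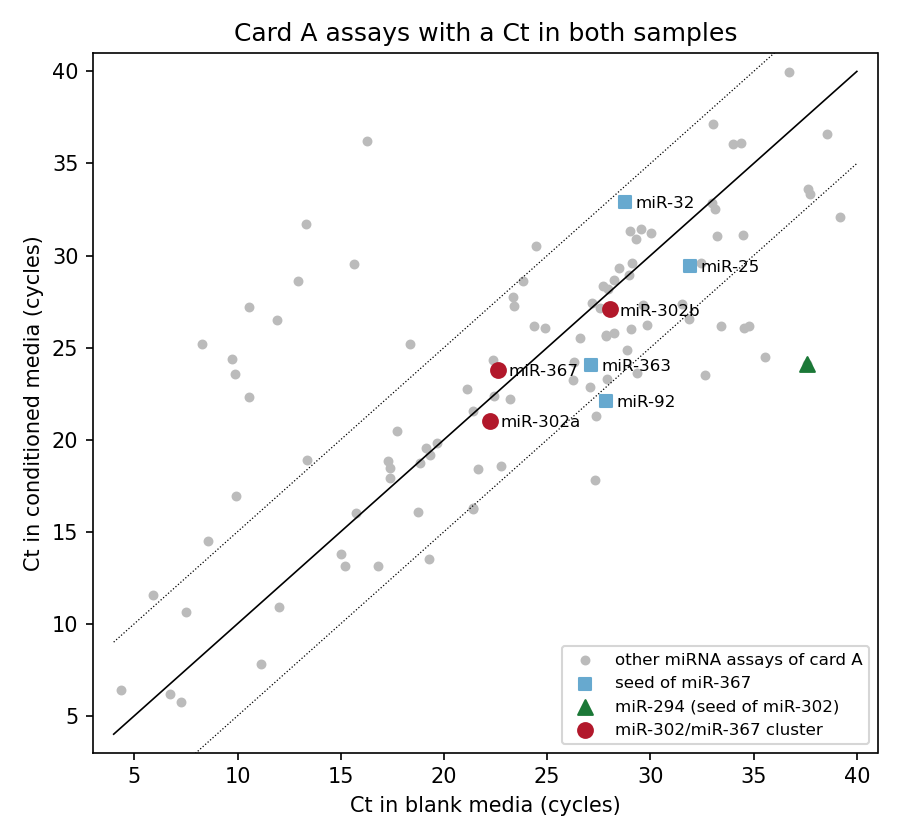
Ct in conditioned media against Ct in blank media, in cycles, for the miRNA assays of card A with a Ct in both samples; the solid line marks equal Ct and the dotted lines a difference of 5 cycles. Red circles are the cluster members miR-302a, miR-302b and miR-367, close to the solid line; blue squares have the miR-367 seed, the green triangle is miR-294, and grey points are all other assays.

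Mature miR-291a-3p, miR-294 and miR-295 have the seed of miR-302b and miR-302d. With an older assay on card B named miR-291-3p, which was read as miR-291a-3p, 4 other mouse assays had this seed. In conditioned media, miR-295 had a Ct of 19.7, miR-294 of 24.1, miR-291a-3p of 26.6 and the older assay of 33.0. In blank media, only miR-294 had a Ct, of 37.6, which is 13.5 cycles later than in conditioned media. All 4 mouse assays were thus detected with embryos and none without, a pattern of 104 of the 750 miRNA assays of both cards. By contrast, miR-302a and miR-302b were detected in both samples. The rat-named assay rno-miR-294 on card B, given this seed by its name, had the opposite pattern, undetermined with embryos and at a Ct of 6.86 without, and with it 1 of 5 assays with the seed was detected in blank media. This Ct is among the early ones below 15, and with such wells counted as not detected the number stays at 0 of 5. With an undetermined Ct taken as the last cycle, miR-295 was 20.3 cycles earlier in conditioned media, miR-291a-3p 13.4 cycles and miR-291-3p 6.98 cycles. On this scale miR-302d was 3.25 cycles earlier. The mean of U6 came 4.08 cycles earlier with embryos on card A and 7.07 on card B. Relative to U6, the direction for miR-302d and miR-291-3p is therefore not known. The values of miR-294, miR-295 and miR-291a-3p exceeded the SD of 3.29 cycles on card A. That of miR-302d is only the least difference that the run allows, so that whether it exceeds this SD is not known. It also rests on 1 well past the limit of 35, and U6 wells at earlier Ct values do not measure the error there. In blank media, miR-302b had a Ct below 35 and the mouse assays of miR-290 members with its seed did not.

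Sequences with the seed of miR-367 had 4 other mouse assays on card A, for miR-25, miR-363, miR-32 and miR-92. The last is an older name that was read as miR-92a. All 4 were detected in both samples, like miR-367, against 25.1% of the miRNA assays of card A. The Ct of miR-92 was 22.1 with embryos and 27.9 without, and that of miR-363 was 24.0 and 27.1. The Ct of miR-25 was 29.4 with embryos and 31.9 without, and that of miR-32 was 32.9 and 28.8. The difference was -5.73 cycles for miR-92, -3.08 for miR-363, -2.47 for miR-25 and 4.13 for miR-32, with a median of -2.77. Without normalization, miR-367 and miR-32 were thus later in conditioned media and the other 3 earlier, whereas relative to the mean of U6 miR-363 and miR-25 turned to 1.01 and 1.62 cycles later and the difference of miR-92 was -1.65. Relative to the median of U6, these were 2.02, 2.63 and -0.64. Without normalization, the differences of miR-92 and miR-32 exceeded the SD of 3.29 cycles and those of all 4 exceeded the SD of 0.50. Only that of miR-92 then exceeded 5 cycles. Relative to U6, the difference of miR-32 was 8.21 cycles with the mean and 9.22 with the median. Of the 4, only that of miR-32 exceeded 5 cycles on these scales.

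**Figure D3:**
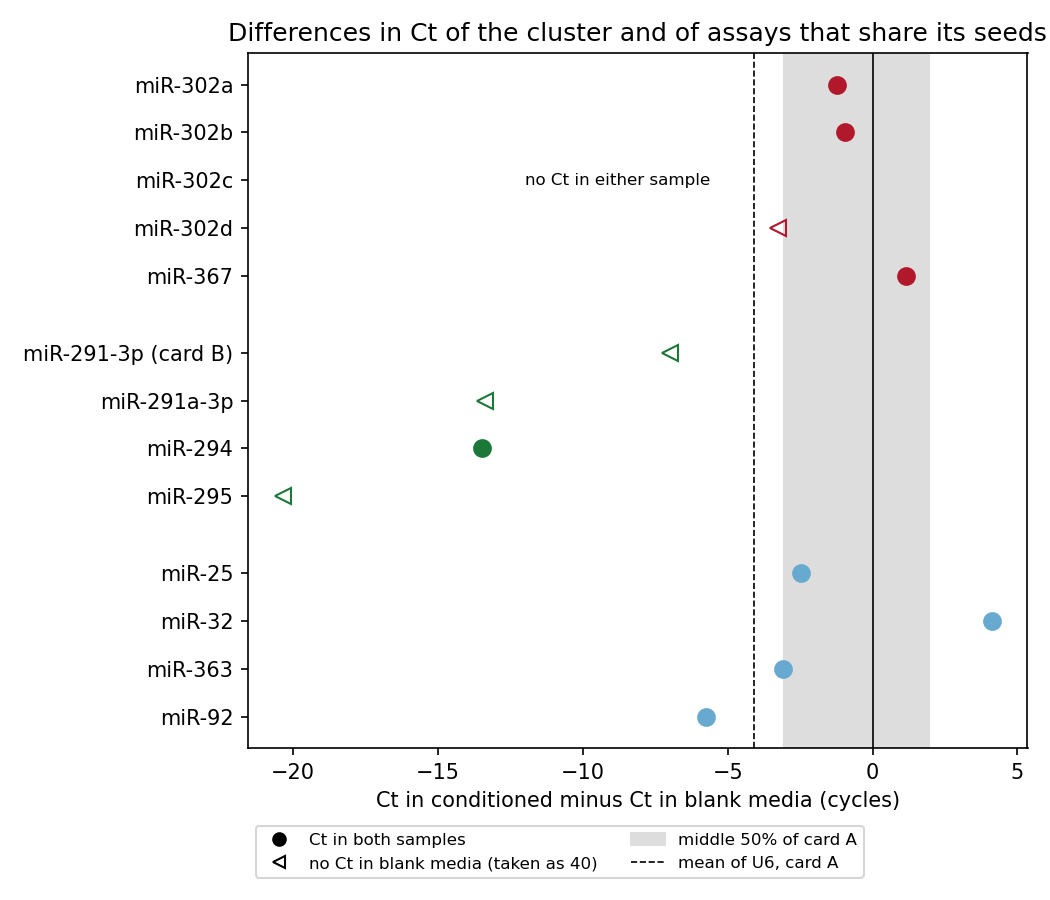
Ct in conditioned media minus Ct in blank media, in cycles, for the 5 cluster assays (red), mouse assays with the miR-302 seed (green) and with the miR-367 seed (blue); open triangles are assays with no Ct in blank media, set to 40 there, and miR-302c, with no Ct in either sample, has no symbol. The grey band is the middle 50% of the assays of card A detected in both samples and the dashed line the mean of U6 on that card. miR-302a, miR-302b and miR-367 lie inside the band, and the 4 mouse assays with the miR-302 seed lie between -6.98 and -20.3.

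Of the minor arms of the cluster, 3 had an assay, miR-302a#, miR-302b# and miR-302c#, all on card B. All 3 were undetermined in both samples, and hence no second arm was measured beside the Ct of miR-302a or of miR-302b. Across both cards, 73 of 108 mouse minor-arm assays had no Ct in either sample (67.6%), so that this was the more common outcome for such an assay.

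The mouse assays of card A whose pair of Ct values was most like that of each member were sought by their distance in cycles over the 2 samples, among 329 assays of main arms. Nearest to miR-302a were miR-208, at 0.97 cycles, miR-96 at 1.37 and miR-184 at 1.52. Nearest to miR-302b were miR-30e, at 0.49 cycles, miR-150 at 0.93 and miR-30a-5p at 1.10. Nearest to miR-367 were miR-758, at 0.62 cycles, and again miR-96 at 1.42 and miR-184 at 1.69, both of which were also among the nearest to miR-302a. Nearest to miR-302d were miR-135b, miR-200b and miR-199a-3p, at 0.15, 0.34 and 0.36 cycles, each with a Ct between 36.4 and 37.1 in conditioned media and none in blank media. For miR-200b, the paper's list of miRNAs found only in conditioned media gives a much earlier Ct. This conflict was not resolved here. With miR-302c, 149 of the 329 assays had no Ct in either sample. None of these neighbours is a member of the miR-290 family, which follows from the Ct values of that family and is no separate finding.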

How the data were processed

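Ct values, on an inverted log2 scale, were exported by the authors from the software of the instrument and deposited as they were, with no normalization and with undetermined wells given as text. Fluorescence height, which the study's filter also used, was not analysed here, and how threshold and baseline were set is not given in the sources used here. A second table of the authors, with fold changes relative to U6, was not used. Any error of the 12 cycles of pre-amplification is part of each Ct.

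Members were chosen by assay name, and the members and lists were chosen with earlier results of these data known. Sequences came from the RefSeq tables of GRCm38.p6, to which 453 of 567 mouse main-arm assay names were matched. The sequences named in the text were the 5 members, their minor arms, mouse assays with a seed of a member and the rat-named assay rno-miR-294. Others were the miR-290 family 3p arms, the miR-17 family, control wells and assays added by a seed of bases 2 to 7. For each member with a Ct, the 3 assays with the nearest pair of Ct values were named too, an undetermined Ct taken as 40. Differences are conditioned minus blank media. With 1 sample per group no test was run, and the number of wells, 1 per assay and sample, limits the precision. The counting of detection classes was first tested on simulated data. Alternatives were Ct limits of 32 and 38, any determined Ct, wells with a Ct below 15 left out, minor arms or rat-named assays counted, a seed of bases 2 to 7, and differences centred on the card median or relative to U6. Versions were Python 3.11.15, matplotlib 3.10.9, numpy 2.4.6 and pandas 2.3.3.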

Additional observations from a re-analysis of the deposited data

How the results depend on the processing

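No paired analysis was possible because each group has 1 sample. With a Ct limit of 38 or with any determined Ct, 1 cluster assay, miR-302d, was detected in conditioned media only, in place of 0. Differences of miR-302a relative to U6 were 2.87 cycles with the mean of its wells, 3.88 with the median and 4.13 without the farthest well of each sample, against -1.22 without normalization, and those of miR-302b were 3.13, 4.15 and 4.39 against -0.95. Those of miR-367 were 5.25, 6.27 and 6.51 against 1.17. These shifts follow from the earlier Ct of U6 in conditioned media, and the last of the 3 settings was chosen after seeing the data. Centring on the card median kept the direction of all 3 differences. For assays with the miR-302 seed, the count detected in blank media, whose alternatives were added after seeing the data, went from 0 to 1 with a Ct limit of 38 or any determined Ct, through miR-294, and with rat-named assays, through rno-miR-294. The other counts, of members, of assays with a seed of a member and of all assays in each sample, stayed within 1.5 times under the other alternatives on Ct limits, early wells, minor arms, rat names and seed length that were run for them. With bases 2 to 7 as the seed of miR-302, 5 assays were detected in conditioned media, in place of 4. That longer list also held miR-350, miR-291b-3p and miR-290, which had no Ct in either sample. The names miR-350 and miR-290 give no arm, and they were listed because either arm could have the seed. As miR-291b-3p shows, not all assays of that list were detected with embryos. An undetermined well sets only a limit at the last cycle.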

Other observations

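The miR-17 family has a seed that overlaps that of miR-302 with 1 base of shift, and its members promote proliferation. Of its 6 mouse assays, all on card A, 4 were detected in both samples, against 25.1% of the miRNA assays of that card. None was detected in conditioned media only, against 14.7%. The Ct of miR-17 was 19.2 with embryos and 19.3 without, a difference of -0.16 cycles. That of miR-20a was 24.2 and 26.3, and that of miR-106b was 27.3 and 29.6, both about 2 cycles earlier in conditioned media without normalization. That of miR-106a was 13.5 and 19.3, a difference of -5.77 cycles. With wells of a Ct below 15 counted as not detected, miR-106a would be detected in blank media only, and 3 of the 6 in both samples. The assay of miR-93 had a Ct of 38.2 in conditioned media only, past the limit as for miR-302d, and miR-20b was undetermined in both samples, as miR-302c was. Relative to the mean of U6, the difference was 3.92 cycles for miR-17, 1.99 for miR-20a, 1.79 for miR-106b and -1.69 for miR-106a, and relative to its median 4.93, 3.00, 2.81 and -0.68, so that the direction turned for the first 3 with both.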
